A study of Mus musculus with 4 samples.

Results

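Genes of the FGF, BMP and TGF-beta families were followed in the jaws and brains of newborn FoxO6-/- and WT mice. Members were chosen by symbol: fibroblast growth factors (Fgf with a number) and their receptors (Fgfr), bone morphogenetic proteins (Bmp) and their receptors (Bmpr), growth differentiation factors (Gdf), the TGF-beta ligands (Tgfb1, Tgfb2 and Tgfb3) and the inhibin and activin beta chains (Inhba to Inhbe). Of 18193 genes with a probe set of their own, 52 matched, and where several probe sets named a gene the brightest on average over the 4 arrays was taken. Of 57 mouse genes in the RefSeq table that match the same pattern, Bmp3, Gdf1, Gdf6, Gdf7 and Gdf15 have no probe set that names them alone and were not analysed here.

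RNA was measured on 4 Affymetrix mouse arrays, 1 each for FoxO6-/- mandible and maxilla, WT mandible and maxilla, FoxO6-/- brain and WT brain. In the mutant line both FoxO6 exons were replaced by a LacZ and neomycin resistance cassette, and the mice were kept on a C57BL/6 background. The methods pooled RNA of several animals for each mandible and maxilla array and describe the mutants as including null animals and heterozygotes, while the labels give FoxO6-/- only. Age is postnatal day 0 in the labels, whereas the authors describe the jaw tissue as embryonic. Foxo6 has no probe set named here, so the genotype labels could not be checked on the arrays. With 1 array per group, a difference between the genotypes within a tissue has no replicate check, and arrays of a tissue, which differ in genotype, stand in for replicates when the tissues are compared.

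These families supply much of the signaling between epithelium and mesenchyme that shapes the face, teeth and bones. FGFs bind receptor tyrosine kinases with heparan sulfate as a cofactor and act largely through the MAP kinase cascade, which induces its own inhibitors such as the sproutys. BMPs, GDFs, activins and TGF-betas bind pairs of serine/threonine kinase receptors that phosphorylate SMAD proteins, and secreted antagonists limit them outside the cell. The FGF homologous factors, Fgf11 to Fgf14, are related to FGFs in sequence but stay inside the cell, where they bind voltage-gated sodium channels of neurons.

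The tissue labels were checked against marker genes. All 12 neuron markers were lower in jaw than in brain, with a median log2 difference of -4.02. Of these, Nefm and Rbfox3 reached the floor defined below only in brain, so they had to be lower. The 6 of 6 enamel organ markers that were compared were higher in jaw, with a median of 6.03. Their brain signals lay between 1.25 (Enam in WT brain) and 66.3 (Ambn in FoxO6-/- brain), all under the floor. They were compared only because of their jaw signals and had to be higher, so their direction is no check of the labels. Their exact ratios were not measured. The arrays labelled brain also held strong signals of bone, muscle and epithelium. Col1a2, a bone and connective tissue collagen, had signals of 41006 and 27736 in FoxO6-/- and WT jaw, against 32367 and 26036 in FoxO6-/- and WT brain. Acta1, the actin of skeletal muscle, had 33887 and 26941 in FoxO6-/- and WT jaw, against 19009 and 21462 in FoxO6-/- and WT brain. The 4 arrays therefore compare 2 head samples that share connective tissue, and how far this shared tissue moves the ratios of jaw over brain was not tested. Lower signal from fewer cells of a type and from less RNA per cell cannot be told apart in these tissues.

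Marker sums also differed between the genotypes. All 13 cartilage markers were lower in FoxO6-/- than in WT jaw, with a summed signal of 37414 against 58908, and all 13 were higher in FoxO6-/- than in WT brain, with a sum of 63999 against 35638. Bpifb9b, a gene of nasal and airway epithelium, had a signal of 4.62 in FoxO6-/- jaw against 6546 in WT jaw, and 6462 in FoxO6-/- brain against 1.72 in WT brain. The 3' to 5' signal ratio of the Actb control, a measure of RNA integrity, was 3.37 in FoxO6-/- jaw, 2.23 in WT jaw, 2.22 in FoxO6-/- brain and 2.21 in WT brain. The part of these differences in the genotype ratios of the members was not tested.

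Signals at or above the median of all signals, 101, were taken as measured well enough to compare, and this level is called the floor. A total of 34 members reached it on at least 1 array and 26 on all 4. For the comparison of tissues, which uses the mean over all arrays, 30 members entered, and 28 entered the comparison of genotypes in jaw and 31 in brain. Another 20 members entered none, with signals between 0.848 and 120.3. They are the secreted FGFs Fgf2, Fgf3, Fgf4, Fgf5, Fgf8, Fgf10, Fgf16, Fgf17, Fgf20, Fgf21, Fgf22 and Fgf23, the BMPs Bmp8b, Bmp10 and Bmp15, the growth differentiation factors Gdf3 and Gdf11, the inhibin chains Inhbc and Inhbe, and Tgfb1. Of these only Fgf3, with 108 in FoxO6-/- jaw, and Fgf4, with 120.3 in WT brain, passed the floor on any array. Fgf10, a mesenchymal ligand for epithelial buds, had 98.6 in FoxO6-/- jaw and 87.4 in WT jaw, against 52.1 in FoxO6-/- brain and 43.4 in WT brain, and so lay under the floor on every array.

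**Figure D1:**
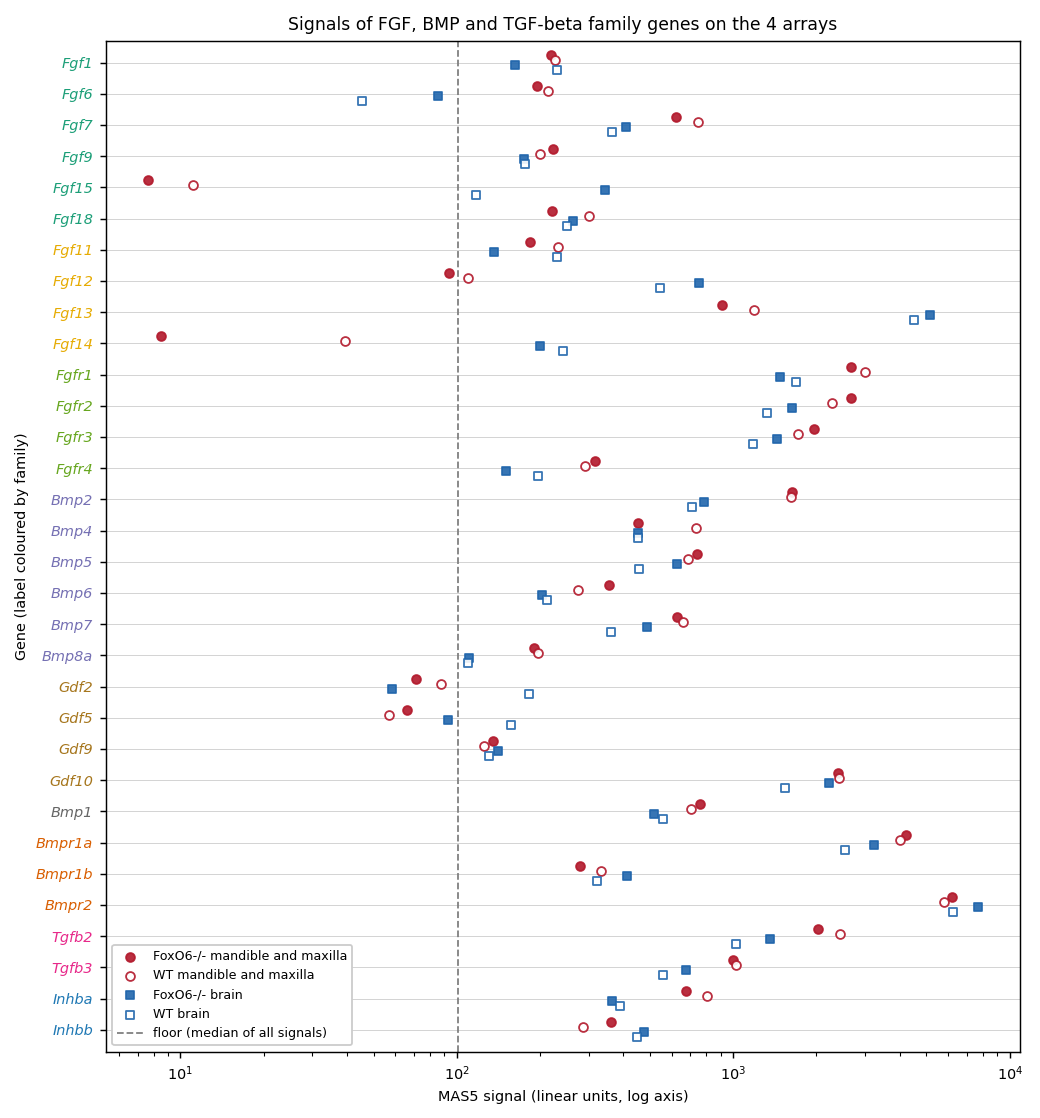
MAS5 signal (log axis) of each member that entered a comparison, grouped by family, with 1 symbol for each of the 4 arrays and a dashed line at the floor. Fgf12, Fgf13, Fgf14 and Fgf15 have both brain symbols to the right of both jaw symbols by more than any other member.

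The first comparison was jaw against brain. Tested with limma over 12569 genes, with genotype as a term, 3 of 30 members were called higher in jaw at a Benjamini-Hochberg adjusted p under 0.05, namely Bmp2, Fgfr1 and Inhba, where 6.48% of all genes were called. Another 4 of 30 were called lower, namely Fgf12, Fgf13, Fgf14 and Fgf15, where 8.73% of all genes were called. Fgf14 and Fgf15 entered only through brain and Fgf6 only through jaw, so these 3 had to differ. Of the 27 members that reached the floor in both tissues, 3 were called higher (5.05% of such genes) and Fgf12 and Fgf13 were the 2 called lower (5.75% of such genes). Without regard to the test, 22 of 30 members lay on the higher side in jaw, against 54.7% of all genes, and 8 on the lower side, against 45.3%. In both genotypes 19 of 30 were higher, against 42.1% of all genes, and the median log2 ratio of jaw over brain was 0.43 for the members and 0.05 for all genes. In both genotypes separately, the signals as measured of Bmp2 and Fgf6 were 2-fold or more higher in jaw (5.37% of all genes) and those of the 4 genes called lower were 2-fold or more lower (8.46% of all genes). With signals under the floor raised to it, 1 of the 2 and 2 of the 4 remained, Bmp2 on the higher side and Fgf12 and Fgf13 on the lower. No member was called when the floor was dropped, where limma called 0 of 18193 genes in either direction, with 16 of 52 members and 3824 genes at an unadjusted p under 0.05.

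Of the 4 intracellular FGF homologous factors, 3 were called lower in jaw, 1 of which, Fgf14, had no jaw signal at the floor. Fgf13 had signals of 914 and 1190.1 in FoxO6-/- and WT jaw, against 5137 and 4506 in FoxO6-/- and WT brain. Both jaw arrays were far below both brain arrays, and Fgf13 fell by 2.21 on the log2 scale (SE 0.21, limma adjusted p = 0.0181). Fgf12 had 93.4 and 109.9 in FoxO6-/- and WT jaw, against 750.0 and 541 in FoxO6-/- and WT brain, a log2 ratio of -2.65 (SE 0.24, limma adjusted p = 0.0165). Its other probe sets separated the tissues in the same direction, with 57.0 and 40.8 in FoxO6-/- and WT jaw against 304 and 177 in FoxO6-/- and WT brain for the brighter of them. The calls of Fgf12 and Fgf13 held without each array in turn.

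Fgf14, the factor linked to inherited ataxia in humans, was under the floor in both jaws, with 8.52 and 39.5 in FoxO6-/- and WT jaw against 200.4 and 242 in FoxO6-/- and WT brain. Its signal was at least 2.19-fold lower in jaw than in brain when jaw was set to the floor (limma adjusted p = 0.0382 on the signals as measured), and its exact ratio was not measured. This call was lost without the FoxO6-/- brain array (adjusted p = 0.103 by limma) and without the WT brain array (adjusted p = 0.118 by limma). Fgf11 stood apart from the other factors, with 184 and 232 in FoxO6-/- and WT jaw against 136 and 231 in FoxO6-/- and WT brain. Its tissues overlapped and its log2 ratio of 0.22 did not pass the test (SE 0.19, limma adjusted p = 0.474).

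The stretch before the annotated start of Fgf14 is shown because Fgf14 is a member called lower in jaw with a single start in the RefSeq promoter table, whereas Fgf12 and Fgf13 have several. It was chosen after the values were seen. The 250 bases lie at chr14:124192547-124192796 on the minus strand (GRCm38.p6, RefSeq) and have 64% G and C, with 2 GC boxes (GGGCGG, read on either strand as GGGCGG or CCGCCC) in capitals, starting 95 and 52 bases before the start: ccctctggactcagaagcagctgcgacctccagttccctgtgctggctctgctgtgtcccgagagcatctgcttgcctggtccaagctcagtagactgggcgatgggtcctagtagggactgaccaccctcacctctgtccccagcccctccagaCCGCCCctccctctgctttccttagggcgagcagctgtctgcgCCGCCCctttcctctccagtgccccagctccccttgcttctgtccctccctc. Such a box was found in 32.7% of 32851 promoter windows of this length and in 27 of the 47 windows of members, which cover 38 of the 52 genes. A forkhead element (GTAAACA or TGTTTAC), the kind of sequence FOXO proteins bind, was found in 3.17% of all windows and in 1 member window, that of Fgf10.

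Among the secreted FGFs, 6 of 18 entered the tissue comparison, 5 on the higher side in jaw, with a median log2 ratio of 0.23. Fgf15, which in mouse signals from the gut to the liver and is also made in the embryonic nervous system, was the exception. It had 7.61 and 11.1 in FoxO6-/- and WT jaw, both under the floor, against 344 and 117 in FoxO6-/- and WT brain. With jaw set to the floor, Fgf15 was at least 1.99-fold lower in jaw (limma adjusted p = 0.0297 on the signals as measured), and its exact ratio was not measured. With signals under the floor raised to it in the test itself, the log2 ratio was -0.996 and the call was lost (adjusted p = 0.157 by limma).

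Fgf6, a ligand of developing skeletal muscle, had 195 and 215 in FoxO6-/- and WT jaw, against 85.8 and 45.5 in FoxO6-/- and WT brain. Both jaws were above both brains, and the signal was at least 2.03-fold higher in jaw with brain set to the floor. On the signals as measured, the log2 ratio of 1.71 missed the threshold (SE 0.32, limma adjusted p = 0.0557). Both brains were under the floor, so the exact Fgf6 ratio was not measured. The skeletal muscle markers lay on the same side, with 8 of 8 higher in jaw and a median log2 ratio of 1.24, and their part in the Fgf6 ratio was not tested. Fgf7, made by mesenchyme and received by epithelium, had 620.3 and 744 in FoxO6-/- and WT jaw, against 410.3 and 365 in FoxO6-/- and WT brain (log2 ratio 0.81, SE 0.19, limma adjusted p = 0.0803). Fgf9, a ligand made by epithelium, had 222 and 199 in FoxO6-/- and WT jaw, against 175 and 177 in FoxO6-/- and WT brain (log2 ratio 0.26, SE 0.15, limma adjusted p = 0.330). Its other probe set lay on the opposite side, with 157 and 125 in FoxO6-/- and WT jaw against 196 and 168 in FoxO6-/- and WT brain. Fgf1 and Fgf18 had log2 ratios of 0.21 and 0.00.

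All 4 FGF receptors were higher in jaw, with log2 ratios of jaw over brain between 0.49 and 0.84. Fgfr1, the receptor most used by mesenchyme, had 2668 and 2984 in FoxO6-/- and WT jaw, against 1469.8 and 1691 in FoxO6-/- and WT brain (log2 ratio 0.84, SE 0.15, limma adjusted p = 0.0495). Both jaws were above both brains, but the call was lost without each array in turn, with adjusted p in limma between 0.070 and 0.117, and when probe sets that may pick up other transcripts were left out, where the log2 ratio was 0.37 (limma adjusted p = 0.197). Fgfr2, whose splice forms separate epithelial from mesenchymal ligands, had 2667 and 2269 in FoxO6-/- and WT jaw, against 1628 and 1325 in FoxO6-/- and WT brain (log2 ratio 0.74, SE 0.15, limma adjusted p = 0.0615). Fgfr3, a brake on cartilage growth, had 1961 and 1719 in FoxO6-/- and WT jaw, against 1440.5 and 1180.1 in FoxO6-/- and WT brain (log2 ratio 0.49, SE 0.15, limma adjusted p = 0.125). Fgfr4 had 317 and 289.7 in FoxO6-/- and WT jaw, against 151 and 197 in FoxO6-/- and WT brain (log2 ratio 0.81, SE 0.20, limma adjusted p = 0.0913). For each receptor both jaw arrays lay above both brain arrays.

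**Figure D2:**
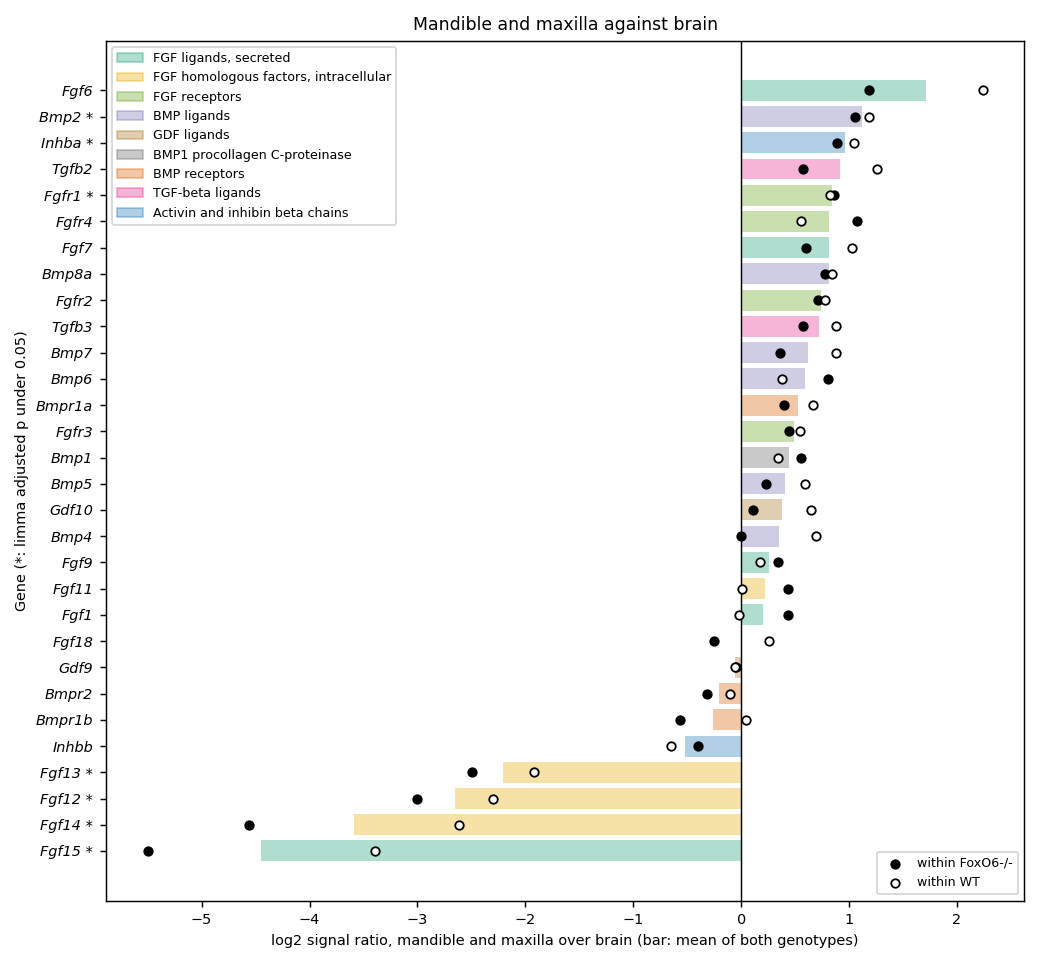
Log2 ratio of mandible and maxilla over brain for each member that entered the tissue comparison, within FoxO6-/- (filled points) and WT (open points) mice, with bars for the mean of both and an asterisk for members called by limma. The FGF receptors and BMP ligands sit at about 0 or above, whereas Fgf12, Fgf13, Fgf14 and Fgf15 sit at -1.92 or lower, of which Fgf14 and Fgf15 are drawn from jaw signals under the floor.

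All 6 BMP ligands that entered had a positive mean log2 ratio of jaw over brain, with a median of 0.61. Bmp2, which drives bone formation and marks the tooth signaling centers, had 1629 and 1618 in FoxO6-/- and WT jaw, against 783 and 711 in FoxO6-/- and WT brain. Both jaws were more than 2-fold above the brain of the same genotype, and Bmp2 rose by 1.12 on the log2 scale (SE 0.15, limma adjusted p = 0.0303). The call was lost without the WT brain array (adjusted p = 0.051 by limma). Bmp8a had 191 and 196 in FoxO6-/- and WT jaw, against 111 and 109.5 in FoxO6-/- and WT brain, and just missed the threshold (log2 ratio 0.81, SE 0.15, limma adjusted p = 0.0526). Bmp7, a ligand of tooth and eye development, had 626 and 660.2 in FoxO6-/- and WT jaw, against 487 and 360.1 in FoxO6-/- and WT brain (log2 ratio 0.62, SE 0.20, limma adjusted p = 0.142).

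Bmp6, a ligand of cartilage and bone, had 355 and 275 in FoxO6-/- and WT jaw, against 203 and 212 in FoxO6-/- and WT brain (log2 ratio 0.59, SE 0.19, limma adjusted p = 0.134). Bmp5, which acts in the growth of skeletal elements, had 737 and 688 in FoxO6-/- and WT jaw, against 627 and 458 in FoxO6-/- and WT brain (log2 ratio 0.41, SE 0.17, limma adjusted p = 0.213). For both ligands each jaw was above each brain. Bmp4, which passes between dental epithelium and mesenchyme, had 452 and 736 in FoxO6-/- and WT jaw, against 452 and 454 in FoxO6-/- and WT brain (log2 ratio 0.35, SE 0.24, limma adjusted p = 0.385). Here only WT jaw stood above the other 3 arrays. Bmp1, which is a procollagen proteinase and not a ligand, had a log2 ratio of 0.45 (SE 0.16, limma adjusted p = 0.160).

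Of the growth differentiation factors only Gdf9 and Gdf10 entered the tissue comparison. Gdf10, a relative of Bmp3 that opposes bone formation, had 2389 and 2404 in FoxO6-/- and WT jaw, against 2222 and 1535 in FoxO6-/- and WT brain (log2 ratio 0.38, SE 0.21, limma adjusted p = 0.300). Gdf9, an oocyte factor, had 136 and 125 in FoxO6-/- and WT jaw, against 140.5 and 130.4 in FoxO6-/- and WT brain, and its tissues overlapped (log2 ratio -0.05, limma adjusted p = 0.825).

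The BMP receptors did not separate the tissues past the test. The type I receptor Bmpr1a had 4227 and 4009 in FoxO6-/- and WT jaw, against 3219 and 2534 in FoxO6-/- and WT brain (log2 ratio 0.53, SE 0.16, limma adjusted p = 0.131). Bmpr1b, the other type I receptor, had 280.1 and 331 in FoxO6-/- and WT jaw, against 414 and 321 in FoxO6-/- and WT brain, with overlapping tissues (log2 ratio -0.26, SE 0.22, limma adjusted p = 0.474). The type II receptor Bmpr2 had 6188 and 5802 in FoxO6-/- and WT jaw, against 7687 and 6235 in FoxO6-/- and WT brain, both jaws lying just below both brains (log2 ratio -0.21, SE 0.16, limma adjusted p = 0.423). Another Bmpr2 probe set above the floor lay on the opposite side, with 201 and 166 in FoxO6-/- and WT jaw against 155 and 115 in FoxO6-/- and WT brain.

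In the TGF-beta and activin family, Inhba was called. It encodes the chain of activin A, which is required for tooth development in mice, and had 672 and 800.2 in FoxO6-/- and WT jaw, against 363 and 389 in FoxO6-/- and WT brain. Both jaws were well above both brains, and Inhba rose by 0.96 on the log2 scale (SE 0.15, limma adjusted p = 0.0411). The call was lost without WT jaw (adjusted p = 0.070 by limma), FoxO6-/- brain (adjusted p = 0.090 by limma) or WT brain (adjusted p = 0.073 by limma). Inhbb, the chain of activin B, lay on the opposite side, with 362 and 285 in FoxO6-/- and WT jaw against 477 and 449 in FoxO6-/- and WT brain (log2 ratio -0.53, SE 0.16, limma adjusted p = 0.130). On its second probe set the tissues overlapped, with 80.2 and 125 in FoxO6-/- and WT jaw against 106 and 102 in FoxO6-/- and WT brain (log2 ratio -0.05).

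Tgfb2, needed for the palate and heart, had 2024 and 2432 in FoxO6-/- and WT jaw, against 1357 and 1019 in FoxO6-/- and WT brain (log2 ratio 0.92, SE 0.23, limma adjusted p = 0.0956). Each of its other 3 probe sets also had both jaws above both brains. Tgfb3, which acts in palatal fusion, had 999 and 1025 in FoxO6-/- and WT jaw, against 674 and 558 in FoxO6-/- and WT brain (log2 ratio 0.72, SE 0.17, limma adjusted p = 0.0817).

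The 250 bases before the start of Inhba are shown as those of a member called higher in jaw, also chosen after the values were seen, since Bmp2 and Fgfr1 were not matched in the promoter table. They lie at chr13:16011601-16011850 on the plus strand (GRCm38.p6, RefSeq), have 43.2% G and C, and hold 1 TATA box sequence (TATAAA, searched on both strands as TATAAA or TTTATA) in capitals, starting 91 bases before the start: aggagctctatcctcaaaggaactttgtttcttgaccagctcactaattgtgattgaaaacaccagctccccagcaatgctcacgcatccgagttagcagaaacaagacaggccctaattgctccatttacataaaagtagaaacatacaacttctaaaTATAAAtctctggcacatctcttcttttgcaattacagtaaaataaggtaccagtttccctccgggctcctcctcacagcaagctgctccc. This sequence was found in 12.4% of all windows and in 7 of the 47 member windows.

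Genes around the members, from lists that do not include them, were compared in the same fit. Of all genes, 6.48% were called higher in jaw and 8.73% lower. Of 13 BMP and activin antagonists that entered, 2 were called higher in jaw, Sostdc1, a BMP antagonist of tooth epithelium (log2 ratio 1.84, SE 0.16, limma adjusted p = 0.0144), and Bambi, a decoy receptor (1.55, SE 0.15, limma adjusted p = 0.0188), and 0 were called lower. Of 10 FGF co-receptors and carriers, 2 were called higher and 3 lower, with Sdc1 and Fgfbp1 at log2 ratios of 1.58 and 1.46 and Fgfbp3 at -1.93. Klb, among those called lower, was under the floor on 3 of 4 arrays and entered only through WT brain, so its ratio was not measured. Of 7 BMP target genes, Msx1, a homeobox gene of the jaw mesenchyme, was called higher (2.18) and Id4 lower (-1.07). Of 9 genes of TGF-beta latency, storage and response, Ltbp1 (1.21) and Fbn2 (0.91) were called higher and 0 lower. No gene was called by limma among 10 FGF feedback and target genes, 7 SMADs and 11 other receptors of the TGF-beta family, of which 3, 1 and 6 had an unadjusted p under 0.05. Their median log2 ratios of jaw over brain were 0.20, 0.04 and 0.23.

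The second comparison was FoxO6-/- against WT in jaw. Of the 28 members that entered, 0 were at least 2-fold higher in FoxO6-/- jaw, where 0.591% of all genes were, and 0 were at least 2-fold lower, where 1.69% were. Differences of at least 1.5-fold were seen for 0 members on the higher side (3.48% of all genes) and 1 on the lower side. A total of 12 members lay on the higher side, which held 48.7% of all genes, and 16 on the lower side, which held 51.3%. When each array was centred on its median instead, 17 of 28 members and 66.2% of all genes lay on the higher side, and the median of all genes moved to 0.13 from -0.01, so that the side of a small difference depends on the scaling. The log2 ratios of the members ran between -0.70 and 0.37. For scale, the ratios of the brightest 2 probe sets of a gene differed with an SD of 0.42 in jaw over all genes. Probe sets of a gene share the same arrays, so this SD holds no variation between animals, dissections or arrays. The full error of a genotype ratio was not measured.

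Bmp4 was the only member 1.5-fold or more apart in jaw, with 452 in FoxO6-/- jaw against 736 in WT jaw, 1.63-fold lower in the mutant (log2 ratio -0.70). At least 1.5-fold lower in FoxO6-/- jaw were 6.5% of all genes. It was measured by 1 probe set and remained negative under quantile normalization (-0.63) and median centring (-0.57). In brain Bmp4 had 452 in FoxO6-/- mice and 454 in WT mice. Its 250 bases before the start are shown for this reason, at chr14:46390670-46390919 on the minus strand (GRCm38.p6, RefSeq), with 63.2% G and C and 1 GC box in capitals starting 38 bases before the start: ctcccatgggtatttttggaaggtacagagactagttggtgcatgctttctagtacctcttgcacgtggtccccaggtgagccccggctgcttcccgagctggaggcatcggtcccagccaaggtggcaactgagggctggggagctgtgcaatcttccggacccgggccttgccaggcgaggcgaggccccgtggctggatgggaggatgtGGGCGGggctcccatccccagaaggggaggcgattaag. No forkhead element with the letters given above was in this window.

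The FGF ligands and homologous factors lay mostly on the lower side in FoxO6-/- jaw, with 7 of 8 lower, beside 51.3% of all genes. Their median log2 ratio was -0.25, and it was -0.11 under median centring. Fgf1, at -0.05, changed side under quantile normalization (0.08) and median centring (0.09). The second probe set of Fgf7 went the other way, with 240 in FoxO6-/- jaw against 183 in WT jaw. So did the other probe sets of Fgf12 (0.48 each), which were under the floor in jaw. Fgf18, which acts in bone and cartilage growth, had 221 in FoxO6-/- jaw against 301 in WT jaw (log2 ratio -0.44), Fgf13 had 914 against 1190.1 (-0.38) and Fgf11 had 184 against 232 (-0.33). Fgf9 was the exception, with 222 in FoxO6-/- jaw and 199 in WT jaw (0.16). The neuron markers, which share the tissue pattern of Fgf12 and Fgf13, were lower in FoxO6-/- jaw in 10 of 10 cases (median -0.78, summed signal 4419 in FoxO6-/- jaw against 6545 in WT jaw), and their part in the ratios of these factors was not tested. Of these, Snap25 (63.4 in FoxO6-/- jaw, 197 in WT jaw) entered only through WT jaw and had to be lower.

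The FGF feedback and target genes, which respond to FGF signaling, had 7 of 10 on the lower side in FoxO6-/- jaw, beside 51.3% of all genes, with a median of -0.20 that was -0.06 under median centring. The markers of cartilage (13 of 13, median -0.86), neurons (10 of 10, -0.78) and olfactory and respiratory epithelium (6 of 7, -1.38) were also lower in FoxO6-/- jaw, and their part in these ratios was not tested. Among them Cnga2 (41.0 in FoxO6-/- jaw, 203 in WT jaw), Bpifb9b and Snap25 entered only through WT jaw, so they had to be lower. Spry4, an inhibitor of the pathway, had 297 in FoxO6-/- jaw against 443 in WT jaw (log2 ratio -0.58), and Etv5, a transcription factor induced by FGF, had 928 against 1287 (-0.47). Dusp6, the phosphatase of ERK, had 3463 in FoxO6-/- jaw and 3216 in WT jaw (0.11), so the list did not move as one.

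The receptors differed little in jaw. Fgfr1 had a log2 ratio of FoxO6-/- over WT of -0.16, Fgfr2 of 0.23, Fgfr3 of 0.19 and Fgfr4 of 0.13, and the BMP receptors lay between -0.24 for Bmpr1b and 0.09 for Bmpr2. Bmp2, called between the tissues, was the same in both jaws to within 0.01 on the log2 scale. Bmp6 had 355 in FoxO6-/- jaw against 275 in WT jaw, the highest member ratio in jaw on the brightest probe sets (0.37). A dimmer probe set of Bmp5 had 213 in FoxO6-/- jaw against 116 in WT jaw (0.88), while its brightest gave 0.10. Inhbb had 362 against 285 (0.34), though its second probe set went the other way, with 80.2 in FoxO6-/- jaw against 125 in WT jaw. Tgfb2 had 2024 in FoxO6-/- jaw against 2432 in WT jaw (-0.26), Inhba had 672 against 800.2 (-0.25), and Tgfb3, Gdf10, Bmp7 and Bmp8a lay within 0.08 of 0.

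**Figure D3:**
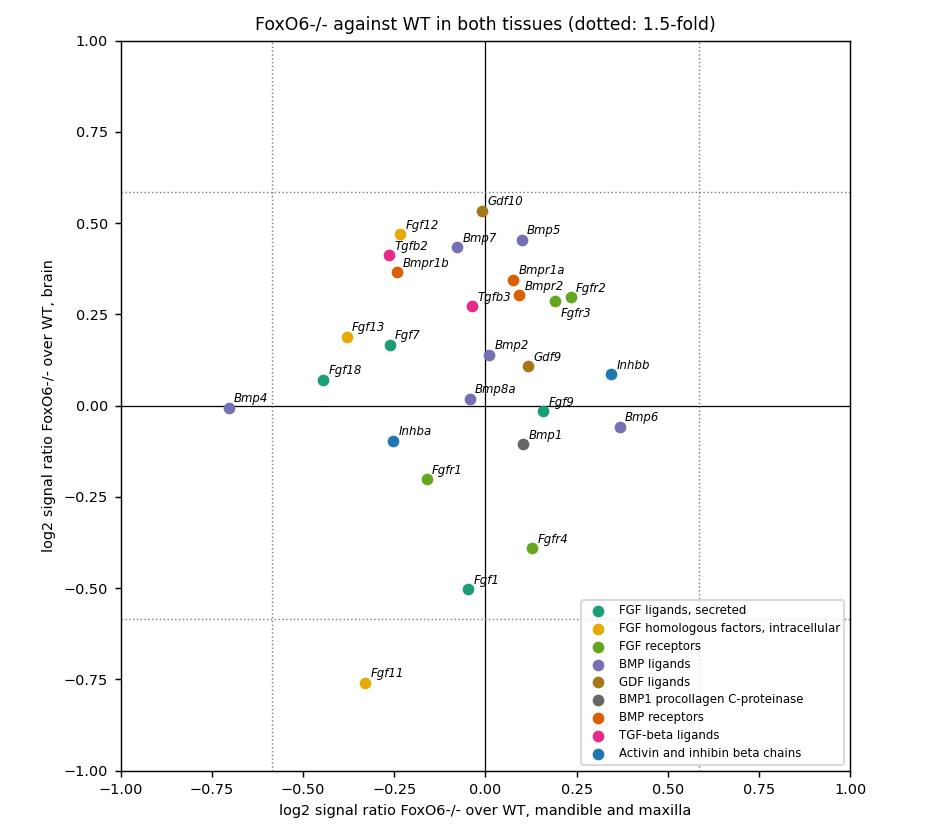
Log2 ratio of FoxO6-/- over WT in mandible and maxilla (horizontal axis) and in brain (vertical axis) for the 27 members that entered both comparisons, coloured by family. Most points lie within 0.5 of 0 on both axes, with Bmp4 at -0.70 in jaw and Fgf11 at -0.76 in brain.

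In brain, 31 members entered, of which 19 lay on the higher side in FoxO6-/- mice, which held 57.3% of all genes, and 12 on the lower side, which held 42.7%. At least 2-fold higher was 1 member, Fgf15, where 1.13% of all genes were, and 2-fold or more lower as measured was 1 member, Gdf2, where 2.03% were. Fgf15 had 344 in FoxO6-/- brain against 117 in WT brain, 2.94-fold higher in the mutant (log2 ratio 1.55), from 1 probe set, and it was the only member at least 1.5-fold higher, where 4.05% of all genes were. Its WT brain signal lay near the floor of 101. Both jaw arrays were under the floor, at 7.61 in FoxO6-/- jaw and 11.1 in WT jaw. The ratio was 1.57 under quantile normalization and 1.59 under median centring, and the corresponding probe-set spread in brain was an SD of 0.39.

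Gdf2, also called BMP9 and made mainly by the liver, had 58.1 in FoxO6-/- brain, under the floor, against 183 in WT brain, so that it was at least 1.82-fold lower in the mutant with FoxO6-/- brain set to the floor, and with signals raised to the floor 0 members were 2-fold lower. Gdf5, a joint and cartilage factor, had 92.7 in FoxO6-/- brain, under the floor, against 156 in WT brain, or at least 1.55-fold lower. Fgf11 had 136 in FoxO6-/- brain against 231 in WT brain (log2 ratio -0.76, 1.69-fold lower). These 3 members are those at least 1.5-fold lower, where 6.25% of all genes were, and each lies near the floor in 1 or both brains. Gdf2 and Gdf5 entered only through WT brain, so they had to be lower in the mutant, and only Fgf11 was free to go either way.

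The 3 BMP receptors all lay on the higher side in FoxO6-/- brain. Bmpr1a had 3219 in FoxO6-/- brain against 2534 in WT brain (log2 ratio 0.35), Bmpr1b had 414 against 321 (0.37) and Bmpr2 had 7687 against 6235 (0.30). Each ratio was under the probe-set SD of 0.39, and 1 of the 4 other Bmpr1a probe sets above the floor went the other way, with 595 in FoxO6-/- brain against 703 in WT brain. Gdf10 had 2222 in FoxO6-/- brain against 1535 in WT brain (0.53), Bmp5 had 627 against 458 (0.46), Bmp7 had 487 against 360.1 (0.43) and Tgfb2 had 1357 against 1019 (0.41). All 4 probe sets of Tgfb2 were higher in FoxO6-/- brain and lower in FoxO6-/- jaw, though 1 of them only at 903 in FoxO6-/- jaw against 906 in WT jaw. The cartilage markers moved in the same directions as Tgfb2, higher in FoxO6-/- brain (median 0.81) and lower in FoxO6-/- jaw (median -0.86). In jaw, Bmp5 lay on the higher side in FoxO6-/- mice (0.10), and Gdf10 (-0.01) and Bmp7 (-0.08) lay near 0. The part of the cartilage markers in the Tgfb2, Gdf10, Bmp5 and Bmp7 ratios was not tested.

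The 7 BMP target genes that entered in brain were all higher in FoxO6-/- brain, with a median log2 ratio of 0.22 beside 0.05 for all genes. All 13 cartilage markers (median 0.81), 7 of 7 oral epithelium and skin markers (0.62), 6 of 6 olfactory and respiratory epithelium markers (1.55) and 12 of 12 neuron markers (0.37) were also higher in FoxO6-/- brain, as were 57.3% of all genes, and their part in the ratios of these lists was not tested. The olfactory and respiratory markers Gng13 (395 in FoxO6-/- brain, 52.3 in WT brain) and Bpifb9b entered only through FoxO6-/- brain, so they had to be higher. Msx2, a homeobox target in skull and teeth, had 166 in FoxO6-/- brain against 65.8 in WT brain. The WT signal of Msx2 was under the floor, so it had to be higher in FoxO6-/- brain. Hey1 had 811 against 531 (log2 ratio 0.61). The antagonists had 10 of 12 on the higher side, with a median of 0.23, and the SMADs 6 of 7, with a median of 0.22. Among the receptors and co-receptors outside the symbol pattern, Klb, the partner of FGF receptors for endocrine FGFs, had 90.9 in FoxO6-/- brain against 581 in WT brain, and Acvr1c, an activin receptor, had 48.7 against 296, both under the floor in FoxO6-/- brain.

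**Figure D4:**
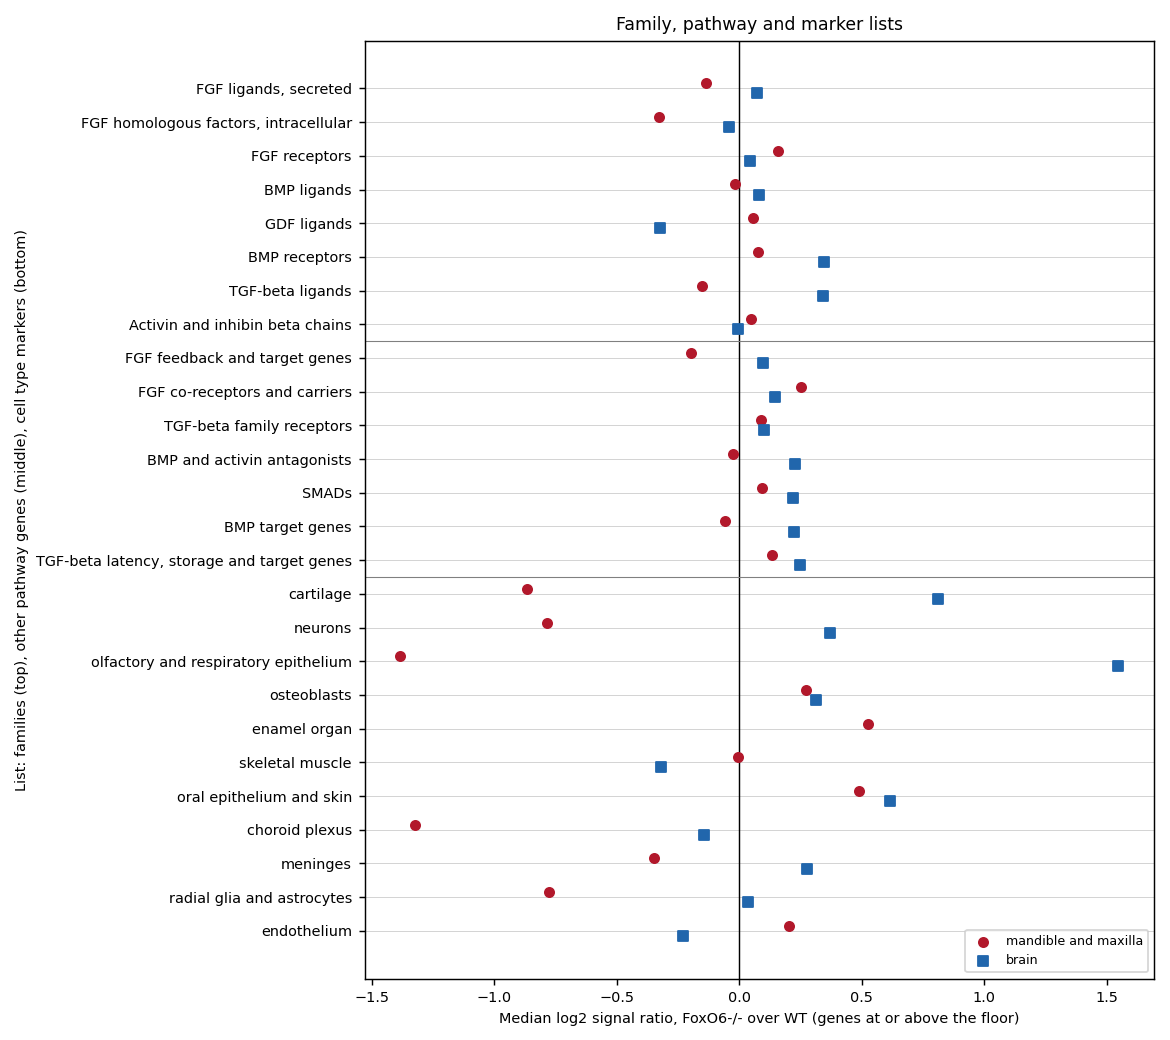
Median log2 ratio of FoxO6-/- over WT in mandible and maxilla (circles) and in brain (squares) for each family (top), each surrounding gene list (middle) and each list of cell type markers (bottom). The family medians lie between -0.33 and 0.35, while the cartilage markers lie at -0.86 in jaw and 0.81 in brain.

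The last comparison took both tissues together, with limma fitting genotype beside tissue. Of 30 members 0 were called, as were 0 of 12569 genes (0%), and at an unadjusted p under 0.05 there were 0 members and 588 genes (4.68% of all genes). The member with the lowest p was Fgf11, with a log2 ratio of FoxO6-/- over WT of -0.54 (SE 0.19, limma unadjusted p = 0.053, limma adjusted p = 0.902), lower in FoxO6-/- mice in both tissues. Of the 27 members that entered in jaw and in brain, 14 lay on opposite sides in the 2 tissues, where 47.3% of all such genes did. A total of 10 also lay apart by the probe-set SD of the jaw ratio (0.42) or more, where 23.6% of such genes did. These values are a description with no test.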

How the data were processed

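Tissue RNA was hybridised to Affymetrix GeneChip mouse genome arrays. The deposited intensity of each of 45101 probe sets is a linear MAS5 signal, which the authors scaled so that the trimmed mean (2% from each end) is 500.0 on every array. The version of MAS5 was not given in the sources used here, and no detection calls were used. The number of arrays limits the precision. Probe sets were named from the platform annotation, with 34945 of 1 gene, 932 of several and 9160 unnamed. Of the 34945, 34741 were matched to RefSeq (GRCm38.p6) by Entrez ID.

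A gene took its brightest probe set and was compared where its mean over the arrays in question reached the median signal, 101. Tissue and genotype were fitted together on log2 signals in limma 3.58.1 (R 4.3.3) leaving 1 residual degree of freedom, and p-values were adjusted by Benjamini-Hochberg over 12569 genes. Ratios within a tissue have no test. A bound ("at least") sets each dim signal to the floor. Members reported with every array were the receptors, the 4 highest and 4 lowest ligands of each group by tissue, and those 1.5-fold apart between genotypes. From each surrounding list at most the 2 highest and the 2 lowest genes in a comparison were named. Other genes named, such as Dusp6 and the markers, were chosen after their values were seen. The members and lists were chosen with earlier results of these data known. Other software was Python 3.11.15, pandas 2.3.3 and matplotlib 3.10.9.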

Additional observations from a re-analysis of the deposited data

Results flagged for a closer look

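For 10 members the FoxO6-/- and WT arrays differed in opposite directions in jaw and brain, with ratios apart by more than 0.415. That is the probe-set SD of the jaw ratio alone, and the spread of a difference between ratios was not estimated. With 1 array per group these differences were not tested. Of all genes that entered in both tissues 23.6% met the same condition. In some of these members 1 tissue lay near 0, with log2 ratios of FoxO6-/- over WT of -0.01 for Gdf10 in jaw, -0.08 for Bmp7 in jaw and -0.06 for Bmp6 in brain, and these 3 changed side under median centring (0.13 for Gdf10 and 0.06 for Bmp7) or quantile normalization (0.01 for Bmp6). Both ratios of Fgf7 changed side when probe sets were averaged. The jaw ratio of Fgf12 came from signals near the floor, 93.4 in FoxO6-/- jaw and 109.9 in WT jaw. Its other probe sets, under the floor in jaw, were higher in FoxO6-/- than in WT jaw (log2 ratio 0.48 each). On the log2 scale, FoxO6-/- over WT was greater in brain than in jaw by 0.70 for Fgf12, 0.68 for Tgfb2, 0.61 for Bmpr1b, 0.57 for Fgf13, 0.54 for Gdf10, 0.52 for Fgf18, 0.51 for Bmp7 and 0.43 for Fgf7. It was smaller in brain than in jaw for Fgfr4 (brain minus jaw -0.52) and Bmp6 (-0.42).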

How the results depend on the processing

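The direction of every member called between the tissues held under all alternatives, but the number of calls did not. Members called higher in jaw, 3 as reported, numbered 5 with median centring, 0 with no floor, 6 when the floor was raised to the 75th percentile, 8 with signals raised to the floor, 1 when all probe sets of a gene were averaged, 8 with a variance trend, 9 without the genotype term, and 1 to 2 without each array in turn. Members called lower, 4 as reported, numbered 0 with no floor, 1 with the higher floor and 3 to 4 without each array in turn. Members at least 2-fold higher in jaw in both genotypes, 2 as reported, numbered 6 with no floor and 1 with the higher floor or raised signals, and those at least 2-fold lower, 4 as reported, numbered 1 with the higher floor and 2 with raised signals. In FoxO6-/- jaw, members at least 2-fold higher numbered 4 with no floor and 1 when probe sets were averaged, and members at least 2-fold lower numbered 6 with no floor, against 0 each as reported. In FoxO6-/- brain, members at least 2-fold higher, 1 as reported, numbered 4 with no floor, 0 with the higher floor and 2 when probe sets were averaged, and those at least 2-fold lower, 1 as reported, numbered 5 with no floor and 0 with the higher floor or raised signals. Over both tissues, 0 members were called for genotype under every alternative run. The choroid plexus median of jaw over brain, -0.93, was 0.58 with the higher floor, which leaves 3 genes. For single members 688 values kept their call or moved by less than the probe-set spread, 5 moved by more, 23 passed the threshold only under the alternative and 20 lost it. Of all 736 values 29 changed side, all from a reported log2 ratio of 0.35 or less in size. The cause of these changes was not tested. Genotype was a term of the tissue fit, so that jaw was compared with brain within genotype. No paired analysis by replicate number was possible because each group has 1 array. With 1 array per group and 1 residual degree of freedom, small differences were not detectable, and signals near the floor give unstable ratios.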
